A study of Mus musculus with 4 samples.

Results

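Nnt and 6 partner genes of mitochondrial NADPH supply and peroxide removal (Idh2, Glud1, Prdx3, Txn2, Txnrd2 and Gsr) were examined in tibialis anterior (TA) muscle, all 7 being found by symbol among the 13825 genes of the count table. They were chosen by the Nnt counts, which were far higher in the Fgf21KO than in the WT libraries, so differences between genotypes are given here as description, without a test. Sham and denervated muscle are written WS and WD for WT mice and KS and KD for Fgf21KO mice, all of them adult males, with muscle collected on day 14 after sciatic nerve section. WT mice were C57BL/6J, Fgf21KO mice lacked Fgf21 in the whole body, and the strain background of the Fgf21KO mice is not given in the sources used here. RNA of 4 muscles was pooled into 1 library per group, so the spread between mice is unknown. The study's text has the control limb undergo the same operation without nerve section, whereas the series record says only that its nerve was kept. Sham and denervated muscles of a genotype may thus come from the same mice.

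NNT sits in the inner mitochondrial membrane and uses the proton gradient to pass hydride from NADH to NADP+, making NADPH in the matrix. IDH2 and GLUD1 also make matrix NADPH, from isocitrate and glutamate. TXNRD2 spends NADPH to reduce thioredoxin 2 (TXN2), which reduces the peroxidase PRDX3, and GSR spends it to regenerate glutathione. The C57BL/6J substrain is known for a spontaneous deletion of several Nnt exons that abolishes the protein, and the mouse reference genome was built from that substrain, so reads from the deleted exons have no place in it to be counted.

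Total counts ran from 25249879 to 34141303 per library. CPM are counts relative to library size after edgeR's TMM scaling. Ratios between libraries are on the log2 scale with a prior count of 2, and 13084 genes averaging 10 counts or more were tested. Intervals are 95% intervals for counting error only. Of the denervation markers listed, 3 were analysed here (Gadd45a, Runx1 and Ncam1), and their log2 ratios of denervated over sham lay between 3.33 and 6.57 in both genotypes. The fast-fibre genes Myh1, Tnni2 and Mylpf together took 25476 to 41913 CPM. With Fgf21 not analysed here, no count checks the knockout label. The 13 mitochondrially encoded genes took 27.0% (WS) and 30.4% (KS) of counts in sham muscle, and 19.4% (WD) and 20.6% (KD) after denervation.

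Among the 7 genes, Nnt was the one far apart between genotypes. WT libraries held 441 (sham) and 2012 (denervated) Nnt counts and Fgf21KO libraries 3699 and 5207, or 19.0, 61.6, 124.5 and 168.3 CPM. Both Fgf21KO libraries were above both WT libraries, and no counting interval reached the next library in that order. In sham muscle Nnt was 6.54-fold higher in Fgf21KO than in WT, a log2 ratio of 2.71 (interval 2.57 to 2.86), which only 3 of the 13084 genes exceeded. In denervated muscle it was 2.73-fold higher, a log2 ratio of 1.45 (1.38 to 1.52), the 34th highest. Nnt was the 1 member at least 2-fold apart in either comparison, where 2.04% of all genes were so in sham and 1.55% in denervated muscle. Among the 34 genes at least 2-fold apart in the same direction in both, Nnt had the highest mean count (2840), ahead of Iigp1 (695), an interferon-induced GTPase. Loss of Fgf21 and strain background cannot be told apart in these libraries.

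**Figure D1:**
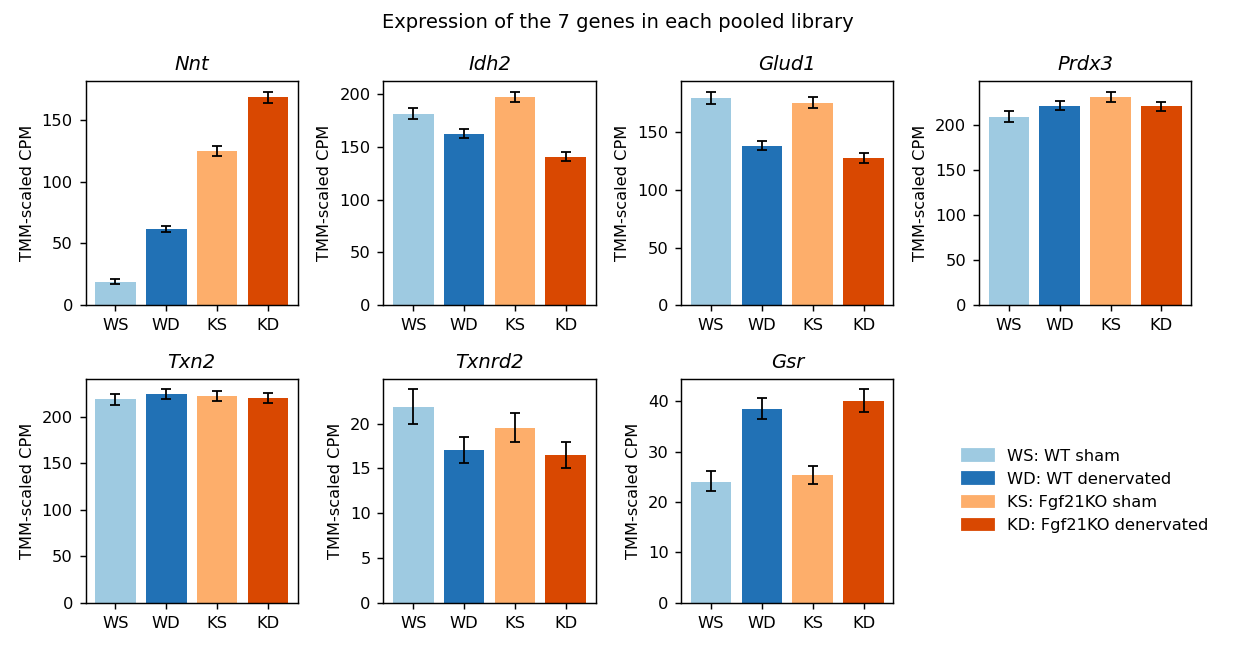
TMM-scaled CPM (vertical axes, each from 0) of the 7 genes in the 4 pooled libraries, 1 bar per library, with 95% Poisson intervals for counting error. Nnt climbs from 19.0 CPM in WS to 168.3 in KD, while Prdx3 and Txn2 stay between 209 and 231 CPM in every library.

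Nnt was higher after denervation in both genotypes, by unequal ratios from unequal sham levels. In CPM it went from 19.0 to 61.6 in WT and from 124.5 to 168.3 in Fgf21KO, steps of similar size on that scale. In WT muscle the level rose 3.24-fold, a log2 ratio of 1.70 (1.55 to 1.85), and in Fgf21KO muscle it was 1.35-fold higher, a log2 ratio of 0.43 (0.37 to 0.50). The Fgf21KO value was of ordinary size, since the median absolute log2 ratio of all genes in KD vs KS was 0.39, and it was 0.79 with total counts only. The Fgf21KO minus WT difference of these log2 ratios was -1.26 (interval -1.42 to -1.10), and 2.25% of all genes had a larger absolute difference. That difference was not tested, since 1 library per group leaves no replicate. Over both genotypes, in an additive model of genotype and surgery (edgeR's quasi-likelihood test, 1 residual degree of freedom), Nnt rose by 0.97 ± 0.14 on the log2 scale (SE) at an adjusted p of 1.14e-06. That model takes the genotypes as replicates of the surgery, and its single value lies between the WT and Fgf21KO ratios. Both ratios (1.70 and 0.43) are outside its SE, which edgeR draws towards other genes and which does not describe their gap.

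Per kilobase of the longest coding transcript, the level of Nnt was 5.48 CPM in WS, the lowest of the 7 genes, and 48.6 CPM in KD, the 4th highest. As a ratio to Idh2, the per-kilobase level of Nnt was 0.0527 (WS), 0.191 (WD), 0.319 (KS) and 0.604 (KD). Relative to Glud1 it was 0.103, 0.437, 0.695 and 1.29, so that in KD alone it stood above that gene. Nnt lies on chromosome 13 (119335448 to 119408997, minus strand, GENCODE M21 on GRCm38) with 17 exons in its longest coding transcript, while Fgf21 is on chromosome 7.

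No tested gene around Nnt had a genotype ratio as high. Within 2 Mb, 14 other genes were tested, with log2 ratios of Fgf21KO over WT from -1.41 to 0.97 (sham) and from -2.08 to 0.48 (denervated). The nearest, Paip1, which encodes a poly(A)-binding protein partner 19.6 kb away, had ratios of 0.13 and 0.02. Hmgcs1, a sterol synthesis enzyme, had ratios of 0.02 and 0.05. Tmem267, a membrane protein gene 79.0 kb away, was lower in Fgf21KO in both surgeries (-0.31 and -0.42), and the kinase Nim1k went both ways (-0.75 and 0.36). For both genes the counting intervals left out 0. In sham muscle the intervals of Paip1, Mrps30 (0.29) and 4833420G17Rik (-0.28) left out 0 as well. These intervals hold counting error only, and the share of all genes whose intervals left out 0 was not counted. The chemokine Ccl28 was the 1 neighbour at least 2-fold apart, lower in Fgf21KO, at 11 and 25 counts in the WT libraries and 4 in each Fgf21KO library. Of all genes, 2.04% were 2-fold apart in sham and 1.55% in denervated muscle.

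**Figure D2:**
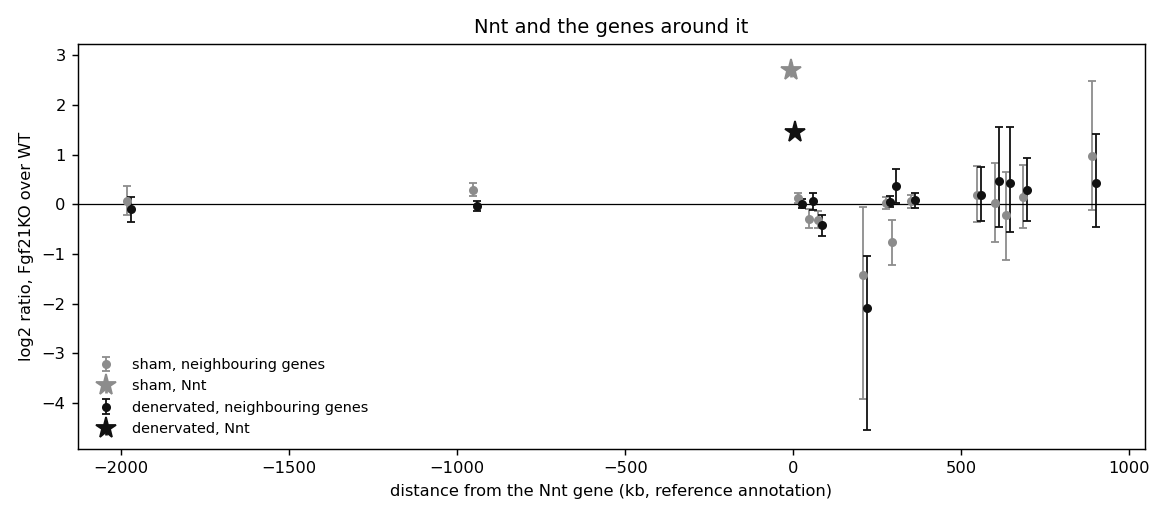
Log2 ratio of Fgf21KO over WT (vertical axis) against distance from Nnt in kb (horizontal axis) for Nnt (stars) and the 14 tested genes within 2 Mb (circles), in sham (grey) and denervated (black) muscle, with 95% counting intervals. Nnt stands at 2.71 and 1.45, and no neighbour exceeds 0.97.

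The genes nearest to Nnt in profile were found by the Euclidean distance between centred log2 CPM over the 4 libraries, among 11315 other genes averaging 50 counts or more. The closest were Pcdhga6 (distance 1.23), Wdfy1 (1.30), Iigp1 (1.34), Pcdhga4 (1.36) and Pde1c (1.38). Wdfy1, which encodes an endosomal adaptor, had 240 and 350 counts in sham and denervated WT muscle and 835 and 998 in Fgf21KO muscle, with genotype ratios of 1.44 and 1.58. Its denervation ratios were 0.05 (WT) and 0.20 (Fgf21KO), lower than those of Nnt. Genotype ratios in sham and denervated muscle were 1.38 and 1.46 for Pcdhga6 and 1.18 and 1.10 for Iigp1. They were 1.21 and 0.24 for Pcdhga4 and 1.41 and 0.25 for Pde1c. In WS, Pcdhga6, Pcdhga4 and Pde1c had 30, 16 and 19 counts. Pcdhga6 and Pcdhga4 are clustered protocadherins that share exons, so reads could be split between them. The other 6 members ranked between 1091 (Gsr) and 8614 (Glud1) by this distance.

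For 5 members RefSeq (GRCm38.p6) gave a promoter window, and none was available here for Nnt and Gsr. The 100 bases before the start site are shown for all 5. Of these genes 3 fell with denervation and the others did not pass the test. Capitals mark GC boxes (GGGCGG or, on the other strand, CCGCCC), which all 5 windows hold, as do 24.7% of the 32851 windows of that length.
Idh2 (chr7:80115351-80115450, minus strand): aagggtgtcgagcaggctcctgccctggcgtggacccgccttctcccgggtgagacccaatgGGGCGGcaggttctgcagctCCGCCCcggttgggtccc
Glud1 (chr14:34310627-34310726, plus strand): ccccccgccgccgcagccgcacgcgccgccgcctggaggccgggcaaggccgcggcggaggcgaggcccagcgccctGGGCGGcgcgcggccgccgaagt
Txnrd2 (chr16:18426317-18426416, plus strand): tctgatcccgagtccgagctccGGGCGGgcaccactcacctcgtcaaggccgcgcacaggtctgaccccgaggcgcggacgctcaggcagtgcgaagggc
Prdx3 (chr19:60874539-60874638, minus strand): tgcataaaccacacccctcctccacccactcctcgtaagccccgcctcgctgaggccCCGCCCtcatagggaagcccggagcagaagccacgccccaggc
Txn2 (chr15:77928995-77929094, minus strand): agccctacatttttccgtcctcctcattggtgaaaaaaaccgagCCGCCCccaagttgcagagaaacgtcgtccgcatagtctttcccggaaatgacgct
The GC content of these windows ran from 52% (Txn2) to 87% (Glud1), against a median of 55% over all windows. Searched on both strands, the antioxidant response element core (TGACNNNGC), the E-box CACGTG, an ERR site (TNAAGGTCA) and the palindromic NRF1 site were not found in these 5 windows, and 4.82%, 3.17%, 0.341% and 0.539% of all windows hold them.

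Idh2 and Glud1, the NADPH sources beside Nnt among the 7 genes, fell with denervation. Idh2, the mitochondrial NADP-linked isocitrate dehydrogenase, had 4212 (sham) and 5296 (denervated) counts in WT and 5847 and 4346 in Fgf21KO muscle, or 181, 162, 197 and 140.5 CPM. Both denervated libraries were below both sham libraries. Its log2 ratio was -0.16 (-0.22 to -0.10) in WT, where total counts only turned the sign (0.12), and -0.49 (-0.54 to -0.43) in Fgf21KO muscle. Over both genotypes it fell by 0.32 ± 0.08 (SE) at an adjusted p of 0.000759.

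Glud1, glutamate dehydrogenase, had 4170 and 4508 counts in the WT libraries, sham first, and 5212 and 3943 in the Fgf21KO libraries, or 179, 138, 175 and 127 CPM. Sham libraries were again above denervated ones in both genotypes. The log2 ratio was -0.38 (-0.44 to -0.32) in WT and -0.46 (-0.52 to -0.40) in Fgf21KO muscle, and over both it fell by 0.42 ± 0.07 (SE), with an adjusted p of 1.18e-05. The calls of Idh2 and Glud1 rested on the scaling. With total counts only they were -0.003 and -0.10 at adjusted p of 0.975 and 0.186, while the median of all genes moved to 0.33. With mitochondrially encoded genes left out of the totals, Idh2 was -0.17 (adjusted p = 0.0502). Glud1 still passed edgeR's quasi-likelihood test there, at -0.27 (adjusted p = 0.00153).

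In the thioredoxin branch, the peroxidase and its electron donor did not pass the test and the reductase fell. Prdx3 had 4859 (WS), 7225 (WD), 6875 (KS) and 6824 (KD) counts, or 209, 221, 231 and 221 CPM. Txn2 had 5077, 7313, 6600 and 6812 counts in the same order, or 219, 224, 222 and 220.2 CPM. The range over the 4 libraries was thus narrow for both, and it was narrower for Txn2. Over both genotypes their log2 changes were 0.006 ± 0.07 and 0.01 ± 0.07 (SE), at adjusted p of 0.954 and 0.906. With total counts only both passed the test, higher after denervation by 0.33 (adjusted p = 0.000716 and 0.000566). The median of all genes was also 0.33 under that scaling.

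Txnrd2, thioredoxin reductase 2, had 507 (WS), 555 (WD), 579 (KS) and 509 (KD) counts, or 21.8, 17.0, 19.5 and 16.5 CPM. It was lower in denervated than in sham muscle of each genotype, with log2 ratios of -0.36 (-0.54 to -0.18) in WT and, in Fgf21KO, -0.24 (-0.42 to -0.07), which total counts only turned to 0.11. Over both genotypes it fell by 0.30 ± 0.11 (SE; adjusted p = 0.0231), but the DESeq2 Wald test gave -0.31 at an adjusted p of 0.176 and total counts only turned the sign (0.02, adjusted p = 0.897).

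Gsr, glutathione reductase, which serves both cytosol and mitochondria, rose. Sham and denervated WT muscle had 559 and 1257 counts and Fgf21KO muscle 751 and 1238, or 24.1, 38.5, 25.3 and 40.0 CPM. Counting intervals of the genotypes overlapped within each surgery, and those of sham and denervated libraries did not. The log2 ratio was 0.68 (0.53 to 0.82) in WT and 0.66 (0.53 to 0.80) in Fgf21KO muscle, and over both genotypes Gsr rose by 0.67 ± 0.09 (SE), with an adjusted p of 4.15e-07.

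**Figure D3:**
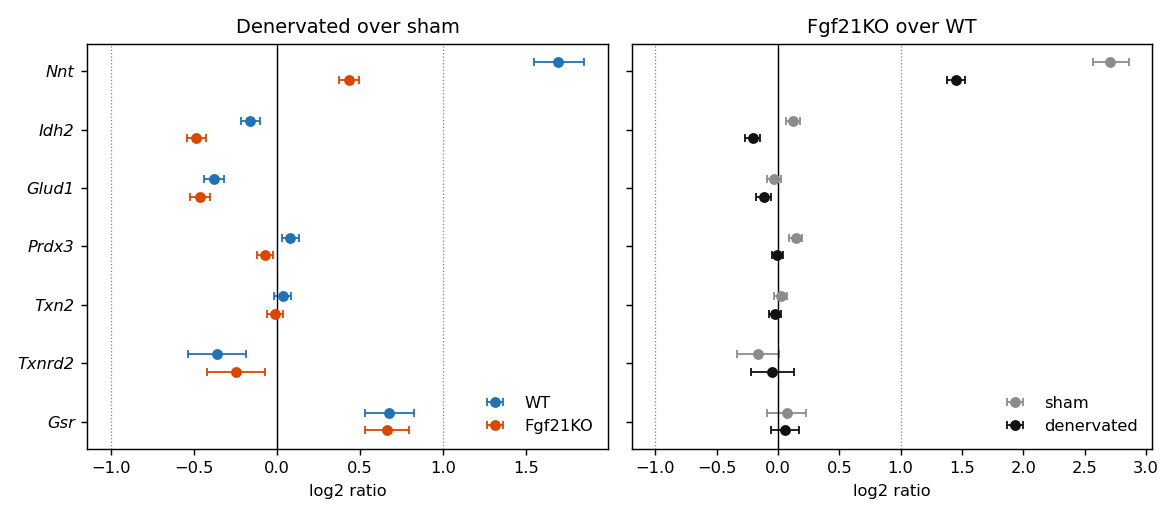
Log2 ratios (horizontal axes) of the 7 genes for denervated over sham muscle in WT (blue) and Fgf21KO (orange), and for Fgf21KO over WT in sham (grey) and denervated (black) muscle, with 95% counting intervals and dotted lines at 2-fold. Nnt alone is past 2-fold, at 1.70 for WT denervation and at 2.71 and 1.45 for genotype.

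Of the 7 genes, 2 rose with denervation (Nnt and Gsr) against 26.6% of all genes tested, 3 fell (Idh2, Glud1 and Txnrd2) against 27%, and 2 did not pass the test. In all, 53.5% of genes passed, so 5 of 7 is near the background. With total counts only, 4 rose (Prdx3 and Txn2 beside Nnt and Gsr) and 0 fell, and over all genes 6116 rose and 1674 fell, beside 3476 and 3527 with TMM scaling. None of the 7 met the study's criterion of an adjusted p below 0.05 with at least a 2-fold change in this model, which 13.1% of genes met. Nnt lay just under 2-fold at 0.97, and it was past it at 1.04 with DESeq2's Wald test, 1.06 with limma-trend, 1.30 with total counts only and 1.13 with mitochondrially encoded genes left out of the totals. Their median log2 change was 0.006, beside 0.009 over all genes. In the pairwise ratios, Nnt was past 2-fold in WD vs WS (14.8% of genes were) and no member was in KD vs KS (13.6%). The 6 members other than Nnt had genotype ratios from -0.16 to 0.15 in sham and from -0.21 to 0.06 in denervated muscle. Of their intervals, 2 left out 0 in sham (Idh2 and Prdx3) and 2 in denervated muscle (Idh2 and Glud1). These intervals hold counting error only, and the share of all genes whose intervals did so was not counted. The median absolute genotype ratio of all genes was 0.15 in sham and 0.11 in denervated muscle.

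Most respiratory chain genes fell. Of 74 nuclear-encoded subunits of complexes I to V, 66 fell (27% of all genes did), none rose and 8 did not pass the test. Their median log2 change was -0.35, although with total counts only 23 fell and 8 rose. All 13 mitochondrially encoded genes fell (median -0.81). Relative to the subunit median within each genotype, the log2 ratio of denervation was 2.00 and 0.84 for Nnt, 0.98 and 1.06 for Gsr, 0.38 and 0.33 for Prdx3, and 0.34 and 0.39 for Txn2, in WT and Fgf21KO. Glud1 lay within 0.08 of that median in both genotypes, at -0.08 and -0.06. Idh2 (0.14 and -0.08) and Txnrd2 (-0.06 and 0.16) lay on either side of it.

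The wider antioxidant and NADPH genes moved in both directions. Of 20 other antioxidant genes tested, not all of them chiefly mitochondrial, 6 rose, 8 fell and 6 did not pass, with a median of -0.09. With total counts only 9 rose and 3 fell. Of all genes 26.6% rose and 27% fell under TMM scaling. Srxn1, which repairs overoxidized peroxiredoxins, rose by 1.30 and the glutathione peroxidase Gpx1 by 1.24 on the log2 scale. Msrb3, a methionine sulfoxide reductase, fell by 1.27 and the membrane glutathione transferase Mgst1 by 1.18. Adjusted p ran from 4.95e-15 to 3.76e-11 for these 4 genes (edgeR's quasi-likelihood test).

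Of 9 further mitochondrial NADPH, folate and proline enzymes, 4 rose and 3 fell, beside 26.6% and 27% of all genes. The other 2 did not pass, and the median was -0.01. Mthfd2, the mitochondrial methylene-tetrahydrofolate dehydrogenase, rose by 3.05, from 83 to 1214 counts in WT and from 145 to 1040 in Fgf21KO muscle. Me2, a mitochondrial malic enzyme, rose by 1.76. Nadk2, the mitochondrial NAD kinase, fell by 0.54 and Aldh1l2, a mitochondrial folate dehydrogenase, fell by 0.45.

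Of 20 cytosolic or secretory NADPH and thiol genes, 11 rose and 3 fell, beside 26.6% and 27% of all genes. The other 6 did not pass, and the median was 0.28. With total counts only 15 rose and 1 fell, where 6116 of all 13084 genes rose and 1674 fell. Pgd, a pentose phosphate dehydrogenase, rose by 1.83, from 359 to 1844 counts in WT and from 496 to 1781 in Fgf21KO muscle, and the cytosolic thioredoxin Txn1 rose by 1.58. The cytosolic malic enzyme Me1 fell by 0.67 and the quinone reductase Nqo1 by 0.46.

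Of 18 TCA cycle and glutamate genes, 14 fell and 1 rose, beside 27% and 26.6% of all genes, and 3 did not pass. The median was -0.39, and with total counts only 7 fell and 4 rose. The alanine aminotransferase Gpt2 fell by 1.68 and Idh3a, a subunit of the NAD-linked isocitrate dehydrogenase, by 0.93, whereas glutamine synthetase Glul rose by 0.92. Suclg2, next from the top, had a change of 0.11 (adjusted p = 0.199). In the 4 lists together no gene was at least 2-fold apart between genotypes in either surgery. Of all genes only 2.04% were so in sham and 1.55% in denervated muscle.

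**Figure D4:**
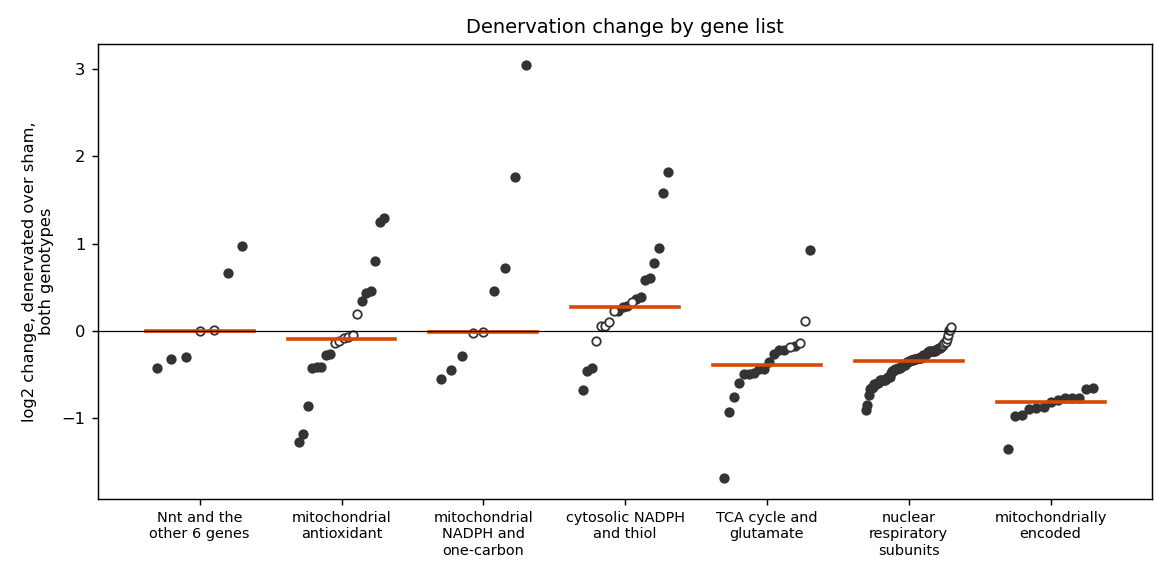
Log2 change of denervated over sham muscle over both genotypes (vertical axis, additive model), 1 circle per gene in 7 gene lists. Filled circles passed an adjusted p of 0.05, open circles did not, and orange bars are medians. Nuclear respiratory subunits centre on -0.35 and mitochondrially encoded genes on -0.81, while the 7 genes straddle 0.

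Markers of other cells moved with denervation under TMM scaling, and every one analysed here had reads in each library. Over all genes, 26.6% rose and 27% fell. All 10 endothelial markers fell, their summed level going from 712 to 319 CPM in WT and from 589 to 316 in Fgf21KO muscle. Of 10 macrophage markers 8 rose and 2 did not pass (33.7 to 73.8 and 35.8 to 73.5 CPM), and of 10 fibroblast markers 7 fell and 3 did not pass (918 to 569 and 886 to 608 CPM). Of the Schwann cell (6), adipocyte (5) and blood (6) markers analysed here, 4, 2 and 5 fell, at most 75.9, 273 and 333 CPM in any library. Between genotypes, Itgam (36 counts in WS and 11 in KS) and Pi16 (345 in WD and 152 in KD) were the markers at least 2-fold apart. Their part in the members' values was not tested, and in bulk muscle fewer cells of a type and less RNA per cell cannot be told apart.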

How the data were processed

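Poly(A)-selected stranded RNA libraries were sequenced, and the authors deposited read counts per gene without normalization. The second table the authors deposited is on a log2 scale. Although named for FPKM, each value equals the log2 of 1 plus the count times 1 factor per library. The processing notes name GRCm39 and FastQC, and the aligner and counter are not given in the sources used here. Positions are from GENCODE M21, matched by symbol.

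The deposited counts were analysed with R 4.3.3, edgeR 4.0.16, limma 3.58.1 and DESeq2 1.42.0. Genes averaging 10 counts or more were scaled by TMM. Denervation was tested over the 4 libraries with genotype as covariate (edgeR's quasi-likelihood test, Benjamini-Hochberg adjustment, threshold 0.05). Ratios between single libraries carry exact binomial intervals for counting error and no test. Since each group is 1 pool, p-values hold no spread between mice. They rest on how far the 4 libraries depart from the additive model, a spread that edgeR draws towards that of other genes.

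The members and gene lists were chosen with earlier results of these data known. The genes named are the members, the 2 highest and 2 lowest of each pathway list by denervation change, neighbours of Nnt and markers past 2-fold between genotypes, and the 5 genes most like Nnt. Other genes named (Paip1, Hmgcs1, Tmem267, Nim1k, Mrps30, 4833420G17Rik, the muscle and denervation markers) were chosen after their values were seen. Some listed genes were not analysed here. Tried in turn instead were total counts with and without mitochondrially encoded genes, DESeq2's size factors, a filter at a mean of 50 counts, all genes unfiltered, a smaller and a larger prior count, the second table, limma-trend, DESeq2's Wald test, a 2-fold threshold, and ratios relative to nuclear respiratory subunits.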

Additional observations from a re-analysis of the deposited data

Results flagged for a closer look

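Prdx3 changed in opposite directions after denervation, 0.08 (WT) and -0.07 (Fgf21KO) on the log2 scale, so that Fgf21KO minus WT was -0.15. The counting intervals of both left out 0. The Fgf21KO ratio became positive with total counts, with or without mitochondrially encoded genes, and relative to nuclear respiratory subunits. Idh2 was higher in Fgf21KO than in WT in sham muscle (0.12) and lower in denervated muscle (-0.21), a difference of -0.33. Both signs held under each scaling tried, though the sham ratio was 0.04 with total counts only. Of all genes, 55.7% had a larger absolute difference than Prdx3 and 27.1% a larger one than Idh2. Neither difference was tested, because each group is 1 library.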

How the results depend on the processing

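Single muscles could not be paired, because there is 1 pooled library a group and the labels number no replicates. The genotype term of the model sets sham against denervated within each genotype, and leaving out a library leaves the additive model no residual degrees of freedom. Total counts only moved the median log2 change of all genes to 0.33 (0.16 without mitochondrially encoded genes, 0.009 with TMM), and the calls for denervation from 3476 higher and 3527 lower to 6116 and 1674 (4790 and 2582).

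With total counts only, 4 members were higher and 0 lower, and 1 was at least 2-fold apart in KD vs KS. Lower genes were then 3 (antioxidant), 1 (mitochondrial NADPH, folate and proline), 1 (cytosolic), 7 (TCA cycle and glutamate) and 23 (nuclear respiratory). Higher genes were 4 (TCA cycle and glutamate) and 8 (nuclear respiratory). Without mitochondrially encoded genes in the totals, 4 members were higher and 1 lower, as were 1 lower mitochondrial NADPH gene and 2 higher TCA cycle and 3 higher respiratory genes. With a 2-fold threshold added, 0 members were higher and 0 lower, with Nnt at 0.97 and, in 4 other fits, from 1.04 to 1.30. The lists then held 2 higher and 2 lower antioxidant genes, 2 and 0 mitochondrial NADPH genes, 2 and 0 cytosolic genes, 0 and 1 TCA cycle and glutamate genes, 0 lower respiratory subunits and 1 lower mitochondrially encoded gene. Relative to nuclear respiratory subunits, 1 member was 2-fold apart in KD vs KS. Prdx3 had a denervation change of -0.0023 with DESeq2's size factors and -0.0022 with its Wald test (adjusted p = 0.981 and 0.989), and Txnrd2 of 0.0187 with total counts only. The cause was not tested.

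Nnt's log2 ratio ran from 2.63 to 2.71 in KS vs WS and from 1.43 to 1.48 in KD vs WD over 9 alternatives. The denervation calls of Nnt and Gsr held under the 7 alternative fits, all of them additive models of the same 4 libraries. DESeq2's Wald test called 4692 genes in all.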
